A study of Mus musculus with 4 samples.

Results

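Interferon-γ (IFN-γ) is a cytokine that binds a cell surface receptor, activates the kinases JAK1 and JAK2 and switches on genes of antigen presentation and antiviral defence. In many cell types IFN-γ also slows growth and lowers the RNA of other genes. The genes described here are the 83 genes of MC38 cells that had lower RNA levels in the IFN-γ library than in its control library under both normoxic and hypoxic conditions. MC38 is an established mouse colon carcinoma cell line, and the control and treated cells carry no engineered allele according to the labels.

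The study sequenced RNA from 4 samples of wild-type MC38 cells, which were untreated cells in normoxia, untreated cells in hypoxia, IFN-γ treated cells in normoxia and IFN-γ treated cells in hypoxia. There was 1 library for each condition. The study's methods set normoxia at 20% and hypoxia at 1.5% oxygen and used IFN-γ at 5 ng/mL for 24 h in most experiments, while the labels of these libraries give neither a dose nor a time. All 4 libraries came from that 1 line.

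The genes were chosen by their measured IFN-γ changes. Both control libraries had to hold at least 100 counts, and the log2 ratio of CPM (counts scaled to the library total, with 0.1 CPM added) had to be at or under -0.3 for IFN-γ against control in the normoxic pair and again in the hypoxic pair. Of 27179 genes in the table, 10554 had at least 100 counts in both controls, and the 83 chosen genes were 0.786% of these. The IFN-γ changes chose the genes, so they are given as a description and carry no test. With 1 library per condition there is no replicate error, and the 95% Clopper-Pearson intervals given below cover counting error only. In RNA from a whole culture, fewer cells that express a gene and less of its RNA per cell cannot be told apart.

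The library totals ran from 34302971 to 34537939 counts, and 3 counts corresponded to between 0.0869 and 0.0875 CPM. The label of colon cancer cells was set against marker genes. Of 9 epithelial markers, 2 were above 3 counts in every library, and their sum ran from 72 to 106 counts. The epithelial adhesion genes Cdh1, Cldn4 and Cldn7 had no counts in any library, nor did the intestinal genes Cdx1, Cdx2 and Lgr5. Of 8 fibroblast markers, 6 were above 3 counts in every library, and their sum was 4361 and 4842 counts in the normoxic and hypoxic controls and 3770 and 3556 counts in the IFN-γ libraries. The mesenchymal genes Col3a1 and Pdgfra carried most of that sum. Leukocyte markers summed to between 89 and 107 counts and endothelial markers to between 31 and 54 counts. The fibroblast sum was lower in both IFN-γ libraries, but not every marker fell in both pairs. Col3a1 had 2859 and 3238 control counts and 2373 and 2233 with IFN-γ. Pdgfra had 1177 and 1341 control counts and 1175 and 1077 with IFN-γ. Col1a2 had 105 and 78 control counts and 76 and 79 with IFN-γ. Any part of the fibroblast sum in the change of the chosen genes was not tested.

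The differences were small and close to each other in the 2 oxygens. The median of the mean log2 change was -0.44 over the 83 genes, a ratio of 0.736, against -0.03 over all 10554 genes. The median was -0.44 in the normoxic and -0.42 in the hypoxic pair. The fall was larger in normoxia for 44 genes and larger in hypoxia for 39, and for 63 genes the 2 changes lay within 0.2 of each other on the log2 scale. The rule set the same limit in both pairs, so the choice itself favours close values in the 2 oxygens. How many of all genes considered lay within 0.2 was not counted. The counting interval lay under 0 in both pairs for 72 genes and under -0.3 in both pairs for 10. These intervals belong to the same ratios that chose the genes, so the choice itself favours intervals under 0. In CPM, both IFN-γ libraries lay under both controls for 72 of the 83 genes, and the choice favours this too. The share over all genes considered was not counted. These numbers are a description and not a test.

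The choice of genes depended on how deeply a gene was counted. Of 772 genes whose lower control count was from 100 to under 200, 33 were chosen, or 4.27%. The share was 1.89% from 200 to under 500, 0.56% from 500 to under 1000, 0.258% from 1000 to under 2000 and 0.0768% at 2000 or more, where 3 of 3908 genes were chosen. The median control count was 294 for the chosen genes and 1386.5 for all genes considered. In the lowest of these ranges, 17 genes passed 0.3 in opposite directions in the 2 oxygens, and over all ranges 30 did.

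**Figure D1:**
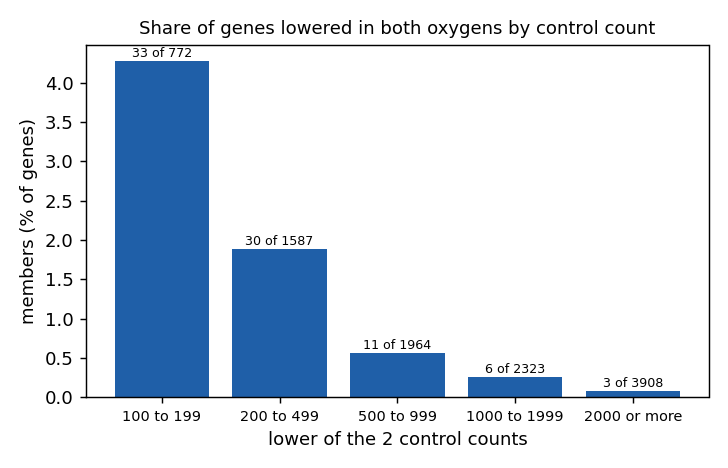
Bars give the share of genes (%) that were lowered by IFN-γ in both oxygens, in ranges of the lower of the 2 control counts, with the number of genes written above each bar. The share falls from 4.27% in the lowest range to 0.0768% at 2000 counts or more.

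Lowering in both oxygens was also less frequent and smaller than raising. At the same size of change, 317 genes were raised in both pairs, with a median of the mean log2 change of 0.65. A log2 change of at least 1 in both pairs was reached by 81 raised genes and by 1 lowered gene, Fam177a2. Of the 24 IFN-γ response genes with enough control counts, 24 were raised and 0 lowered, with a median of 2.08. Of the 10554 genes considered, 450 were lowered in the normoxic pair, and 18.4% of these were lowered in the hypoxic pair too. In the hypoxic pair 350 of the 10554 were lowered, and 23.7% of these were lowered in the normoxic pair too. Both totals include the 83 genes, and they are the background for genes counted below as lowered in 1 pair only.

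**Figure D2:**
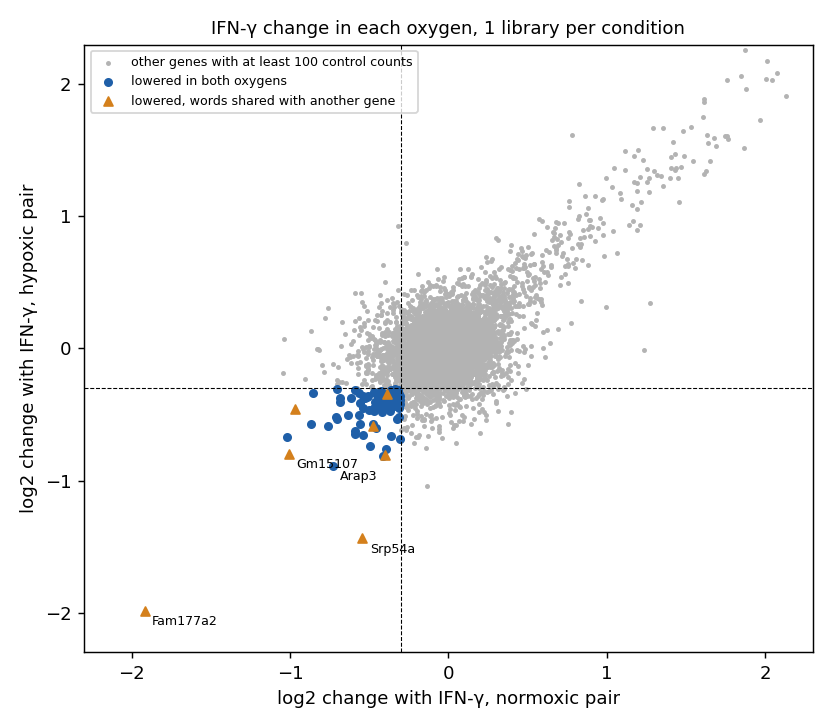
Each point is 1 gene with at least 100 counts in both controls, placed by its log2 CPM ratio of IFN-γ to control in the normoxic pair (x axis) and in the hypoxic pair (y axis), with dashed lines at -0.3. The 83 lowered genes sit at the lower left, triangles share at least 20% of their sequence words with another gene, Fam177a2 lies farthest out, and 17 other genes lie beyond the axis limit of 2.3.

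The promoter sequences of 4 lowered genes are shown because the genes are named in the results below and each has a searched motif before its start. They are the 250 bases before the annotated start of transcription from RefSeq on GRCm38 (mm10), read 5′ to 3′ on the gene's strand. Col6a1 and Col6a2 are neighbours on chromosome 10, and the AP-1 letters TGANTCA in Col6a1 and the GC box letters GGGCGG in Col6a2, on either strand, are in capitals. Plk2 holds the core letters of an interferon-stimulated response element, GAAANNGAA on either strand, and Acsbg1 holds a γ-activated sequence, TTCNNNGAA.
Col6a1 promoter, chr10:76726045-76726294, minus strand: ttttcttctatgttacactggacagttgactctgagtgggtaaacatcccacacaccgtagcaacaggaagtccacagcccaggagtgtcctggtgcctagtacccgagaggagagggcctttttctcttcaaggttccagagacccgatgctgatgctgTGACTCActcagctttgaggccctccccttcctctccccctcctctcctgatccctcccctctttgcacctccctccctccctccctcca
Col6a2 promoter, chr10:76623631-76623880, minus strand: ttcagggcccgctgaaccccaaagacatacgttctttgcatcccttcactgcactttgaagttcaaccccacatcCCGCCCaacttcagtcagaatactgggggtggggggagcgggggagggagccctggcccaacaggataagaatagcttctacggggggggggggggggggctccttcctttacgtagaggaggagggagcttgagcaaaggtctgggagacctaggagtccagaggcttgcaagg
Plk2 promoter, chr13:110394794-110395043, plus strand: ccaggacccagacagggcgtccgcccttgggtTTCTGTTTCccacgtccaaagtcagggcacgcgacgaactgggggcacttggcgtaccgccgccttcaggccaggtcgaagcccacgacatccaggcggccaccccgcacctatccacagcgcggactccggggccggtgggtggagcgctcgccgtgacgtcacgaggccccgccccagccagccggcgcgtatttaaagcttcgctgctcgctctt
Acsbg1 promoter, chr9:54661886-54662135, minus strand: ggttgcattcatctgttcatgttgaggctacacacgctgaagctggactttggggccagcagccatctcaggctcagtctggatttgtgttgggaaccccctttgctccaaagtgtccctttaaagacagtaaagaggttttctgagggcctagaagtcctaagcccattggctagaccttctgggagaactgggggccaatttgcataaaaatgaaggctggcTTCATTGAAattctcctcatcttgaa

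RefSeq windows of 250 bases before to 50 bases after the start were matched for 65 of the 83 genes, in 85 windows, and for 8409 of the genes considered, in 10729 windows. The γ-activated sequence was found in 4.71% of the windows of lowered genes and in 6.71% of all windows, and the response element core in 4.71% and 6.86%. The AP-1 letters stood in 7.06% against 4.84%, and GGAATG, the letters that TEAD factors read, in 11.8% against 11.7%. The GC box was found in 64.7% against 65.1%, CCAAT in 35.3% against 38.6%, the TATA box letters TATAAA in 4.71% against 6.48%, and the E2F letters TTTCCCGC or TTTGGCGC in 1.18% against 3.23%. The wider gaps were for the E-box CACGTG, in 2 of 85 windows or 2.35% against 10.3%, and for ACGTG, the core letters of the hypoxia response element, in 14.1% against 26.4%. The E-box letters contain ACGTG, so these shares overlap, and several windows of 1 gene can overlap too. The lowered genes had a median control count of 294 against 1386.5 for all genes considered, and the windows were not matched for this. A match is a string of letters on either strand and no test was made of these shares.

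The matrix genes included both neighbouring collagen VI chains. Collagen VI is a beaded-filament collagen of the pericellular matrix, and Col6a1 and Col6a2 encode its α1 and α2 chains. Col6a1 (chr10:76708792-76726044) had 1086 counts in the normoxic control, 1051 in the hypoxic control, 727 with IFN-γ in normoxia and 667 with IFN-γ in hypoxia. Both IFN-γ libraries lay under both controls, with ratios of 0.666 and 0.638. These were log2 changes of -0.59 (interval -0.73 to -0.45) and -0.65 (-0.79 to -0.51).

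Col6a2 (chr10:76595756-76623630) ends 85161 bases before Col6a1 begins. It had 452 and 346 counts in the normoxic and hypoxic controls and 278 in each IFN-γ library, so the 2 treated libraries were alike while the controls differed. The log2 changes were -0.70 (-0.93 to -0.49) and -0.31 (-0.54 to -0.08), the second close to the threshold. Col6a3, which encodes the third chain, was not among the lowered genes, with 3653 and 3602 control counts and 2969 and 3729 counts with IFN-γ.

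Of 26 extracellular matrix genes with enough control counts, 2 were lowered in both pairs, 2 were raised in both pairs (Col5a3 and Fbn1) and 7 were lowered in 1 pair only. The share lowered, 7.69% against 0.786% over all genes considered, rests on the 2 collagen VI genes. The median of the mean log2 change of these 26 genes was -0.11. Fn1, which encodes fibronectin, had 17149 and 17926 control counts and 13791 and 20142 counts with IFN-γ, so it was lower in the normoxic pair and not in the hypoxic pair.

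Loxl4 encodes a lysyl oxidase that crosslinks collagen. It had 2567 and 2231 counts in the controls and 2006 and 1787 with IFN-γ, log2 changes of -0.37 and -0.32. It was the 1 lowered gene of 13 collagen crosslinking and hydroxylation genes (7.69%, against 0.786% over all genes considered). Loxl2 of the same list was raised in both pairs.

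Plat encodes tissue plasminogen activator, the protease that turns plasminogen into plasmin. It had 684 counts in the normoxic and 1176 in the hypoxic control, and 406 and 781 with IFN-γ. Its IFN-γ library in hypoxia stood above its control in normoxia, so the groups overlapped across oxygens, while IFN-γ was lower within each pair, at log2 changes of -0.76 (-0.94 to -0.58) and -0.58 (-0.72 to -0.45). It was the 1 lowered gene of 13 matrix protease and urokinase genes with enough counts (7.69%, against 0.786% over all genes considered).

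The 7 lowered genes for secreted signals had mean log2 changes from -0.61 to -0.37. Fgf7, the fibroblast growth factor also called keratinocyte growth factor, had 1978 and 2152 counts in the controls and 1489 and 1606 with IFN-γ. The treated libraries lay under both controls, at ratios of 0.748 and 0.749. Cxcl1, a chemokine that attracts neutrophils, had 826 and 803 control counts and 601 and 603 with IFN-γ, ratios of 0.724 and 0.754. Ppbp, a platelet chemokine that shares a receptor with Cxcl1, had 152 and 202 control counts and 114 and 113 with IFN-γ. Ccn4, a matricellular protein of the CCN family, had 317 and 308 control counts and 242 and 180 with IFN-γ. Its fall was larger in hypoxia (log2 change -0.76) than in normoxia (-0.39). The others were the heparin-binding growth factor Ptn, the neuregulin Nrg2 and the Wnt ligand Wnt10b, which had 120 and 110 control counts and 74 and 82 with IFN-γ.

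The 9 genes that encode surface receptors, adhesion or junction proteins had mean log2 changes from -0.61 to -0.32. Cldn6, a tight junction claudin, had 174 and 183 control counts and 106 and 126 with IFN-γ, and both treated libraries were under both controls. Plxna2, a receptor for semaphorins, had 1345 and 1241 control counts and 1025 and 955 with IFN-γ, log2 changes of -0.40 and -0.37. Others were the fibroblast growth factor receptor Fgfr3, the ATP-gated channel P2rx7, the adhesion proteins Nectin2 and Mcam, the NAD-cleaving surface enzyme Cd38 and the tetraspanin Tspan7. Nectin2, a ligand of lymphocyte receptors, had 472 and 555 control counts and 362 and 404 with IFN-γ. It was the 1 lowered gene of 11 checkpoint ligands and nectins (9.09%, against 0.786% over all genes considered). Cd274 and Cd47 of that list were raised in both pairs.

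The 14 genes of intracellular signal relay had mean log2 changes from -0.81 to -0.33. Plk2, a kinase induced by p53 and by growth stimuli, had 3338 and 3883 control counts and 2555 and 2904 with IFN-γ. The changes were close in the 2 oxygens, -0.40 (-0.47 to -0.32) and -0.41 (-0.49 to -0.35). Traf1, an adaptor of tumour necrosis factor receptors, had 1193 and 1043 control counts and 867 and 750 with IFN-γ, log2 changes of -0.47 in each pair. Pde2a, which breaks down cyclic nucleotides, had 1151 and 1203 control counts and 908 and 954 with IFN-γ. These 3 genes had treated counts under both controls, as most of the 83 genes had.

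At lower counts, Arap3, which regulates small GTPases, had 101 and 120 control counts and 60 and 63 with IFN-γ. Plpp3, a lipid phosphatase of the cell surface, had 153 and 124 and then 83 and 82. Arhgef19, a guanine nucleotide exchange factor, had 325 and 391 and then 224 and 246. All 3 were under both controls in both treated libraries, as most of the 83 genes were. Inpp5j, an inositol phosphatase, had 155 and 218 control counts and 111 and 145 with IFN-γ. It overlaps Pla2g3, which had between 16 and 48 counts. Dusp8 and Dusp14, phosphatases of MAP kinases, Rgs10, Grk5, Plcd1, Pld1 and Stap2 made up the remainder. Of 34 MAPK feedback and immediate early genes, 3 were lowered in both pairs (Btg2, Dusp8 and Dusp14), and Dusp10 was raised. Another 3 were lowered in 1 pair only. The share lowered in both pairs was 8.82%, against 0.786% over all genes considered. No list was tested, and the share of chosen genes depends on the control count.

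The 9 genes that act in transcription or on chromatin had mean log2 changes from -0.60 to -0.32. Btg2, an antiproliferative gene induced by p53, had 206 and 258 control counts and 140 and 172 with IFN-γ, log2 changes of -0.56 and -0.57. Zfp385a, a zinc finger protein, had 438 and 357 control counts and 283 and 250 with IFN-γ. Zfp667 had 100 and 135 and then 54 and 106, the largest difference between oxygens toward a smaller fall in hypoxia (log2 change -0.86 in normoxia and -0.34 in hypoxia). The homeobox gene Prrx2 went the other way, with 115 and 110 control counts and 93 and 67 with IFN-γ. Ssbp3, a cofactor of LIM-domain transcription complexes, had 1274 and 1256 control counts and 1016 and 1011 with IFN-γ. Kdm5b, which removes methyl groups from lysine 4 of histone H3, the chromatin remodeller Chd7, Rfx2 and Lbh were the others. Of 23 p53 target genes, Btg2 and Plk2 were lowered (8.7%, against 0.786% over all genes considered) and Eda2r was raised. Another 2 were lowered in 1 pair only, and Btg2 is also in the MAPK list.

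The 6 channels and transporters had mean log2 changes from -0.61 to -0.33. Aqp1, a water channel, had 384 and 393 control counts and 256 and 253 with IFN-γ, so the libraries formed 2 close pairs at log2 changes of -0.59 and -0.62. Slc35d2, a nucleotide sugar transporter, had 107 and 119 and then 73 and 86. The cation channel Trpm4, the bicarbonate transporter Slc4a4, Slc22a23 and Slc43a2 were the others. Of 180 solute carriers in all, 4 were lowered (2.22%, against 0.786% over all genes considered) while 5 were raised.

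The 9 enzymes had mean log2 changes from -0.53 to -0.33. Setd4, a lysine methyltransferase, had 277 and 229 control counts and 172 and 175 with IFN-γ. Nudt17, a nudix hydrolase, had 378 and 338 and then 276 and 221, and it overlaps Pias3, which had between 1193 and 1452 counts. Ube2q2, a ubiquitin-conjugating enzyme, had 999 and 942 and then 803 and 742. Acsbg1, an acyl-CoA synthetase, Cps1, the first enzyme of the urea cycle, the sialyltransferase St3gal3, Pxylp1, L3hypdh and Cmbl were the others.

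Bmf, a pro-apoptotic BH3-only protein, had the lowest mean of the 2 log2 changes among genes that share under 20% of their sequence words. It had 104 and 106 counts in the controls and 50 and 65 with IFN-γ, ratios of 0.494 and 0.627. The intervals were wide at these counts, from -1.58 to -0.57 in normoxia and from -1.17 to -0.24 in hypoxia. Wdpcp, which acts in planar cell polarity and cilia, had 122 and 103 and then 74 and 70, and Epn3, an endocytic epsin, had 101 and 116 and then 71 and 68. The myosin heavy chain gene Myh7b, the junction protein gene Myzap, Pxmp4 and Osbpl6 had smaller changes.

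The 11 genes that are little described or unmatched to a symbol had mean log2 changes from -0.51 to -0.32. Smim1 had 117 and 169 control counts and 91 and 105 with IFN-γ, and overlaps Lrrc47, which had between 2885 and 3153 counts. 2610316D01Rik had 119 and 110 and then 77 and 84. The remainder were Tmem141, Pxdc1, Fam171a2, Fam71f1, 4632415L05Rik, Elapor2, D17H6S53E and 2 gene IDs without a symbol. Whether the counting used the strand is not given in the sources used here, so for Myh7b, Nudt17, Smim1 and the other genes that overlap a counted neighbour the reads of both cannot be told apart.

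**Figure D3:**
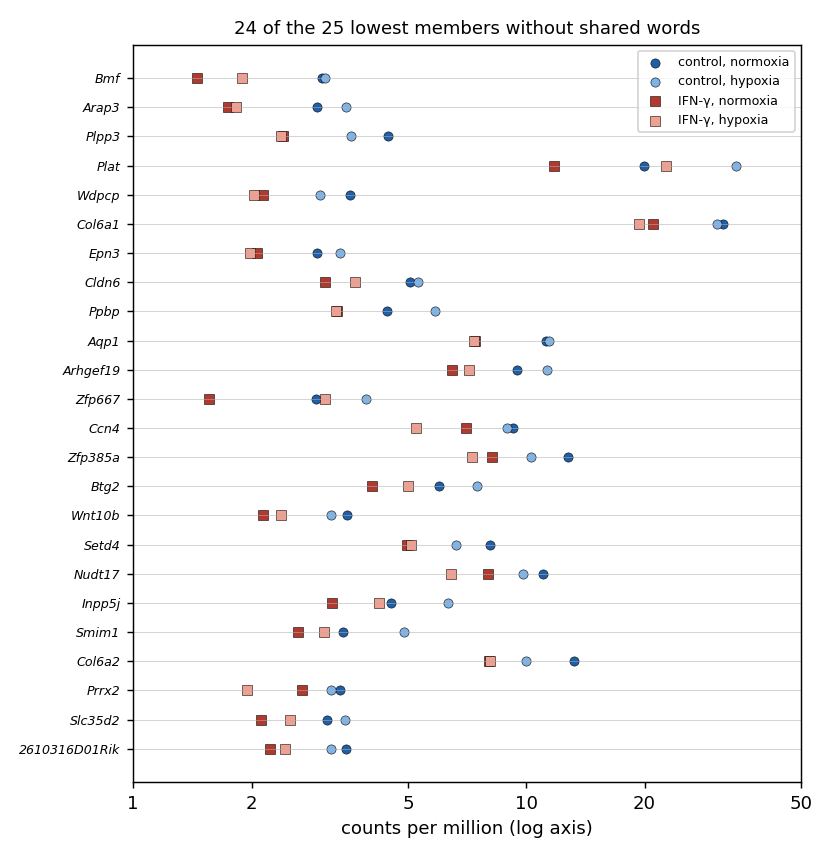
Points give the CPM (log axis) of 24 of the 25 genes with the lowest mean log2 change among those that share under 20% of their sequence words, with circles for the control and squares for the IFN-γ libraries, dark in normoxia and light in hypoxia. In each row the dark square lies left of the dark circle and the light square left of the light circle, and for Plat and Zfp667 the light square lies right of the dark circle.

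Of the 83 genes, 7 share at least 20% of their 31-base words with another gene, 8.64% of those with a transcript sequence against 6.67% of all genes considered, and their reads could have been split between copies. Fam177a2 had 171 and 169 counts in the controls and 43 and 40 with IFN-γ, the lowest ratios of all, 0.265 and 0.253. All of its words occur in Fam177a, which had between 2 and 4 counts in each library. Summed over both genes, the log2 changes were -1.82 and -1.87, close to those of Fam177a2 alone, -1.92 and -1.99.

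Srp54a encodes the 54-kDa subunit of the signal recognition particle and has the copies Srp54b and Srp54c beside it on chromosome 12. It had 126 and 291 control counts and 86 and 105 with IFN-γ. Srp54b had 193 and 25 and then 66 and 51, lower with IFN-γ in normoxia and higher in hypoxia, and Srp54c had 363 and 503 and then 364 and 508. Summed over the 3 copies the log2 changes were -0.41 and -0.2974, and the sum would not have been chosen.

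Gm15107 had 177 and 147 control counts and 87 and 83 with IFN-γ, but the sum over it and 12 further genes that share its words changed by 0.10 and -0.16. The testis antigen gene Mageb1 and its copies gave -0.33 and -0.31 in sum, with Mageb1 alone at -0.40 and -0.81. Krt6a, a keratin of stressed epithelium, had 120 and 131 control counts and 60 and 94 with IFN-γ, and its copy Krt6b had at most 1 count. Prnd and S100a4 share words with gene models that lie over the same locus and were not in the count table. S100a4, a calcium-binding protein of motile cells, had 8937 and 9653 control counts and 6873 and 7590 with IFN-γ, log2 changes of -0.39 (-0.43 to -0.34) and -0.34 (-0.39 to -0.30).

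**Figure D4:**
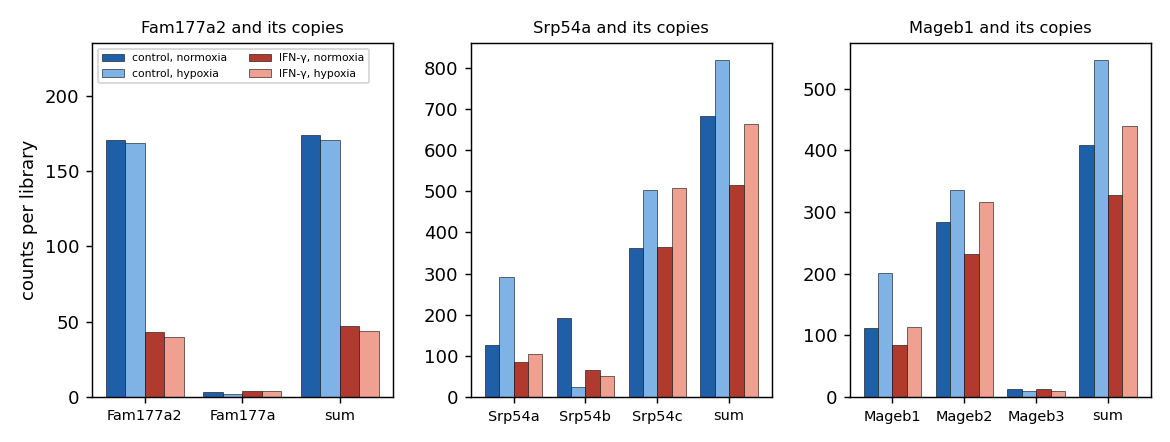
Bars give the counts per library of Fam177a2, Srp54a and Mageb1, of the genes that share their sequence words, and of the sum, for the 4 libraries. The sum is lower with IFN-γ in both oxygens for Fam177a2, while Srp54b is lower in normoxia only and the Srp54c bars of each pair are nearly level.

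The threshold divided genes with near-equal values. Just inside it, Pld1 had log2 changes of -0.30 and -0.36, Osbpl6 of -0.30 and -0.42 and Slc4a4 of -0.30 and -0.39. Just outside it, Kcnn1 stood at -0.36 and -0.2987, Tcaim at -0.2981 and -0.31 and Eml5 at -0.38 and -0.2981.

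Of 52 gene lists and families, 17 held at least 1 lowered gene and 35 held none, and 59 of the 83 genes were in no list. None of 49 DNA replication genes, 51 mitosis genes, 53 ribosome biogenesis genes, 81 cytoplasmic ribosomal proteins, 77 mitochondrial ribosomal proteins or 45 complex I subunits was lowered in both pairs. The share over all genes considered was 0.786%, and 0.0768% at 2000 or more control counts, so lists of these sizes would hold few or no such genes at the background share, and nothing is read from their absence. There was also no lowered gene among 24 cholesterol synthesis, 24 glycolysis and 28 hypoxia response genes. Of 23 Wnt pathway and crypt markers, a list that does not hold Wnt10b, 0 were lowered in both pairs and 6 in 1 pair only (Ephb3, Lef1, Lrp5, Sox4, Sox9 and Tcf7). Of 30 TGF-β and BMP signaling genes, 0 were lowered in both pairs and 4 in 1 pair only. Over all 10554 genes considered, 450 were lowered in the normoxic and 350 in the hypoxic pair, with 83 in both. The 1-pair counts of the lists were not tested, and nothing is read from them. Medians of the mean log2 change for DNA replication and mitosis genes were -0.01 and -0.03, next to -0.03 for all genes considered.

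Whether the lowered genes also responded to oxygen was tested by edgeR's quasi-likelihood test on the 4 libraries, in an additive model with IFN-γ and oxygen as terms. The choice of genes used differences between IFN-γ and control at fixed oxygen, and this test uses the difference between hypoxia and normoxia averaged over both IFN-γ states. The same 4 libraries serve both. Without replicates, its error comes from how far the 4 libraries stray from additive effects (1 residual degree of freedom per gene), shared over genes by edgeR. Variation between cultures and a real interaction cannot be told apart in this error. The SE given here is the size of the fitted log2 change divided by the square root of edgeR's F statistic. The SE of a gene need not follow its own departure from additive effects. Srp54a and Prnd both had an SE of 0.184. Their IFN-γ log2 change in hypoxia minus that in normoxia was -0.89 and -0.11. For Zfp667 and Slc35d2 the SE was 0.223 and 0.224, and that difference was 0.52 and 0.09. The adjusted p of a gene is therefore not a measure of its own spread. Across 13580 genes, hypoxia raised 8.21% (1115 genes) and lowered 6.83% (927 genes) at an adjusted p under 0.05.

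Of the 83 genes, hypoxia raised 13 (15.7%), lowered 1 (1.2%) and left 69 short of the threshold. Among the 10554 genes with at least 100 control counts, 9.52% were raised and 8.61% lowered. The median fitted log2 change with hypoxia was 0.12 (quartiles -0.08 and 0.30) for the 83 genes and 0.00 (quartiles -0.11 and 0.14) for all tested genes. The change was positive for 65.1% of the 83 genes and for 51.2% of all tested genes. All tested genes are the 13580, which include genes with under 100 control counts.

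Myh7b rose most, with 114 counts in the normoxic and 386 in the hypoxic control and 78 and 299 with IFN-γ. Both hypoxic libraries lay above both normoxic ones, at a fitted log2 change of 1.84 (SE 0.163, adjusted p = 3.14e-27, edgeR). Myh7b overlaps Trpc4ap, which had between 8592 and 9308 counts and did not show that pattern. Kdm5b, one of the oxygen-dependent histone demethylases, had 172 and 337 control counts and 116 and 265 with IFN-γ, a fitted log2 change of 1.07 (SE 0.155, adjusted p = 2.97e-10, edgeR). Plat rose with hypoxia by 0.86 (SE 0.0909, adjusted p = 6.3e-19, edgeR), so its highest count was in the hypoxic control and its lowest in the normoxic IFN-γ library.

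Acsbg1 had 429 and 689 control counts and 342 and 513 with IFN-γ, a fitted log2 change with hypoxia of 0.64 (SE 0.107, adjusted p = 1.33e-07, edgeR). Srp54a, whose reads may be split between copies, was at 0.83 (adjusted p = 0.000173, edgeR) and Zfp667 at 0.67 (adjusted p = 0.0223, edgeR). Others raised were Mageb1, Pxdc1, Fgfr3, Plcd1, Ptn and Plk2, with fitted log2 changes between 0.20 and 0.67. Rgs10, which shortens G protein signals, had 621 and 517 control counts and 483 and 371 with IFN-γ, and was the gene lowered by hypoxia (log2 change -0.32, SE 0.106, adjusted p = 0.0238, edgeR).

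The adjusted p-values and the number raised depended on the test. With DESeq2 size factors in edgeR, the log2 changes of Myh7b, Plat and Kdm5b were nearly the same. Their adjusted p by edgeR was then 3.32e-09, 8.72e-08 and 1.37e-05. Without the IFN-γ term, Myh7b had an adjusted p of 0.0375 by edgeR. DESeq2's Wald test called 4 of the 83 genes raised (Myh7b, Kdm5b, Plat and Acsbg1) and 0 lowered, and without the IFN-γ term edgeR called Myh7b alone. DESeq2 gave no adjusted p for Srp54a, Mageb1 and Zfp667, and Ptn passed in none of its 5 alternatives, with adjusted p from 0.0537 to 0.538 by edgeR and DESeq2.

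Fgf7, Col6a1, Aqp1, Cxcl1 and Dusp14 did not pass the hypoxia test. Their fitted log2 changes with hypoxia were 0.12 (SE 0.0723) for Fgf7, -0.08 (SE 0.0852) for Col6a1, 0.01 (SE 0.128) for Aqp1, -0.02 (SE 0.0919) for Cxcl1 and -0.05 (SE 0.0886) for Dusp14.

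**Figure D5:**
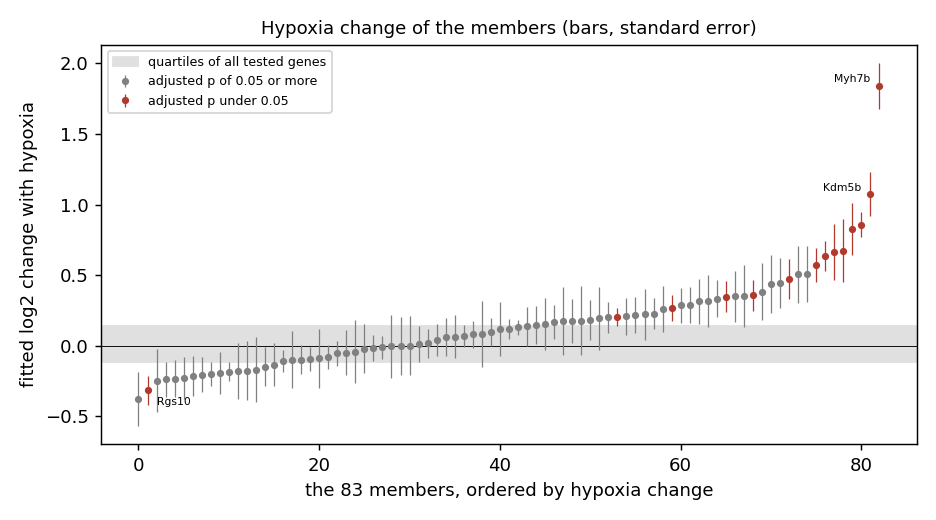
Points give the fitted log2 change with hypoxia of each of the 83 genes in rising order, with bars of 1 standard error derived from edgeR's F statistic. They are red where the adjusted p is under 0.05, over a grey band for the quartiles of all tested genes (-0.11 to 0.14). Myh7b and Kdm5b stand highest, 13 genes are red above 0, and Rgs10 is the red point below 0.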

How the data were processed

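RNA of MC38 cells was measured in 4 libraries, 1 for each condition. Per the labels, poly-A RNA was made into strand-specific dUTP libraries and sequenced from both ends on the DNBSEQ platform. The submitters' processing notes name mm10 and featureCounts, and the study's methods name HISAT2. The authors deposited whole-number counts per gene, not normalized, in 1 table. The annotation, the strand setting and the treatment of reads that match several genes are not given in the sources used here.

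Gene IDs were matched to a RefSeq table of GRCm38.p6, the assembly of mm10, for 25275 of 27179 genes. CPM used the column totals. The hypoxia test was edgeR 4.0.16 (R 4.3.3) with TMM, its default filter at 10 counts, an additive model and Benjamini-Hochberg adjustment at 0.05, checked on simulated data. DESeq2 1.42.0 was an alternative. Shared sequence was counted in 31-base words of GENCODE M21 transcripts on the sense strand. The scripts ran in Python 3.11.15. At 1 library per condition, intervals cover counting error only.

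The members, gene lists, role groups and tests were chosen with earlier results of these data known. Genes are named where they were among the 25 lowest or the 10 with most control counts, of those sharing under 20% of their words. They are also named where they shared at least 20%, were in a list described, were nearest to the threshold, passed the hypoxia test, or differed most between oxygens. The role groups and the remaining names account for the 83 genes, of which 1 is counted but not reported here by name.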

Additional observations from a re-analysis of the deposited data

How the results depend on the processing

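The 83 lowered genes became 67 with TMM library sizes, 70 with DESeq2 size factors, 59 with 1 CPM added and 81 with copies summed, the last chosen after seeing the data. Limits of -0.2, -0.5 and -1 gave 269, 15 and 1 genes, and minimum control counts of 30 and 500 gave 205 and 20. Fam177a2 moved to a mean log2 change of -1.43 with 1 CPM added, and the other 82 genes stayed within their counting intervals with TMM, DESeq2 size factors and 1 CPM added.

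Hypoxia raised 13 and lowered 1 of the 83 genes. DESeq2's Wald test gave 4 and 0 (over all genes 340 and 216), the model without the IFN-γ term 1 and 0 (150 and 26), and unadjusted p-values 22 and 4 (1913 and 1682). Asking also for a change of 0.3 or more on the log2 scale left 702 and 276 of all tested genes. The other fits called 11 or 12 raised and 1 lowered. The cause of these differences was not tested. The median hypoxia change of the 83 genes kept its sign, from 0.11 to 0.12, in all alternatives tried. No paired analysis was possible because each condition has 1 library, so no replicate numbers link further samples. The IFN-γ term of the main model already sets hypoxia against normoxia within each IFN-γ state.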
